A study of Danio rerio with 72 samples.

Results

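The genes described here are 7 genes of muscle structure in the zebrafish: the thin-filament genes acta1a, tpma and tnnc2.2, the thick-filament gene myl10, the giant scaffold gene ttn.2, the actin cross-linker gene flncb and the chaperone gene unc45b. They were found by gene symbol among the 15502 probe sets of an Affymetrix zebrafish array, where 10 probe sets carried the 7 symbols, out of 8793 genes with a single symbol. Of these, 6 genes had 1 probe set each and ttn.2 had 4. Testing needed a signal above the median of the array on 3 or more arrays. Of the 10 probe sets 8 met this, and each of the 7 genes kept at least 1. The other two, both of ttn.2, never lay above the array median and stayed between 4.03 and 4.92 on a log2 scale whose bottom is 4. A gene with several probe sets is given by its brightest. All levels are log2 of the deposited intensity plus 16 after quantile normalization, and levels are compared between arrays for 1 probe set, not between probe sets.

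Skeletal muscle contracts through the sarcomere, in which thin filaments of actin, tropomyosin and troponin slide past thick filaments of myosin, and titin spans from one end of the unit to its middle. These proteins are made in quantity once the cells of a somite begin to differentiate as muscle. The presomitic mesoderm (PSM) lies behind the youngest somite, and most of its cells have not yet begun that programme. The genes of these filament and titin proteins therefore mark cells that differentiate as muscle.

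The arrays carried RNA from posterior PSM cut by hand from embryos at the 12-somite stage, raised at 24 °C. There were 72 arrays in 19 groups, and arrays of 1 group are biological replicates per the labels, which do not give the embryos per array or the meaning of a replicate number. Unless said otherwise a group had 4 arrays. Wild-type AB embryos were kept in retinoic acid (RA), an anteriorizing signal, for 1.5 h or 3 h (3 arrays at 3 h), with DMSO for the same times as control. Wild-type AB embryos were likewise kept in DAPT, an inhibitor of the enzyme that releases active Notch, for 1.5 h (3 arrays) or 3 h (2 arrays), against their own DMSO groups. All other embryos, controls included, were shocked at 37 °C, which switches on transgenes under the hsp70 heat shock promoter throughout the embryo. Embryos of Tg(hsp701;dnfgfr1-EGFP), which carry a dominant-negative Fgf receptor, were shocked for 30 min and dissected 30 min or 1 h later. Those of Tg(hsp:70:DeltaTcF-gfp), Tg(hsp:70:dkk1-gfp) and Tg(hsp:70:wnt8a-gfp) were dissected 1 h after the same shock, with heat-shocked wild-type AB embryos at 30 min and 1 h as controls. Embryos of the cross of Tg(UAS:myc-notch1a-intra) with Tg(hsp70;gal4VP16), in which gal4 drives the intracellular part of Notch, were shocked for 1 h and dissected 45 min or 90 min later, against Tg(hsp70;gal4VP16) embryos.

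Both the tissue and the labels were looked at first. The PSM gene msgn1 lay between 11.75 and 12.80 on all 72 arrays, and tbx16 between 9.27 and 12.14. The tail bud gene tbxta ranged more widely, from 6 to 10.35. The muscle determination gene myod1 ranged from 4.18 to 8.98, and myog, which follows it, from 4.11 to 6.20. The early determination gene myf5 was higher, at 8.27 to 11.31. In the arrays labelled notch1a-intra at 45 min, notch1a was at 11.64 and 11.83 in replicates 1 and 3 but at 8.0 and 8.29 in replicates 2 and 4, against 7.20 to 8.46 in gal4. In the arrays labelled DeltaTcf, dkk1b was at 12.70 to 12.91, against 4.73 to 5.93 in wild type and close to the 12.97 to 13.13 of the dkk1 arrays, which the label does not account for. Directions below that rest on these arrays are given for the libraries labelled notch1a-intra and labelled DeltaTcf.

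The 6 genes other than unc45b varied widely between arrays of 1 group. The skeletal alpha-actin gene acta1a ranged from 5.32 to 12.21 over the 72 arrays. Its standard deviation within groups was 1.68, the 4th highest of the 10126 probe sets tested. This spread was lower for flncb at 1.05, myl10 at 0.94 and ttn.2 at 0.90, for tnnc2.2 at 0.75 and for tpma at 0.68. For comparison, the median probe set had a standard deviation within groups of 0.28, and 9 in 10 lay below 0.46, the 90th percentile. The myosin chaperone gene unc45b was the exception, with 0.22 within groups and a range of 8.86 to 11.67.

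The mean of the 7 genes on each array gives the order of the groups. It was highest in the libraries labelled notch1a-intra at 45 min, at 9.22 ± 0.18 (SD, n = 4), against 6.93 ± 0.61 (SD, n = 4) in gal4 at 45 min. At 90 min it was 8.23 ± 0.39 in notch1a-intra and 7.91 ± 1.04 in gal4 (SD, n = 4 each). In the RA experiment it was 6.54 ± 0.58 with RA for 1.5 h against 8.74 ± 0.44 with DMSO (SD, n = 4 each), so that the treated arrays lay near the bottom of the series and their controls near the top. After 3 h it was 7.51 ± 1.22 with RA (SD, n = 3) and 8.65 ± 0.40 with DMSO (SD, n = 4).

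Among the other heat-shocked groups the mean of the 7 genes was 8.89 ± 0.57 in dnfgfr1 and 8.43 ± 0.79 in wild type at 30 min (SD, n = 4 each). At 1 h it was 8.57 ± 1.02 in dnfgfr1, 8.05 ± 1.18 in the libraries labelled DeltaTcf, 8.13 ± 0.99 in dkk1 and 7.93 ± 1.00 in wnt8a, against 8.62 ± 0.61 in wild type (SD, n = 4 each). All 4 groups of the DAPT experiment were low, DMSO controls included. Their means were 6.69 ± 1.16 with DAPT for 1.5 h (SD, n = 3) against 6.97 ± 1.04 with DMSO (SD, n = 4), and 6.39 ± 0.11 with DAPT for 3 h (SD, n = 2) against 6.44 ± 0.84 with DMSO (SD, n = 4). Experiments were not tested against each other, since each has its own controls and handling.

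**Figure D1:**
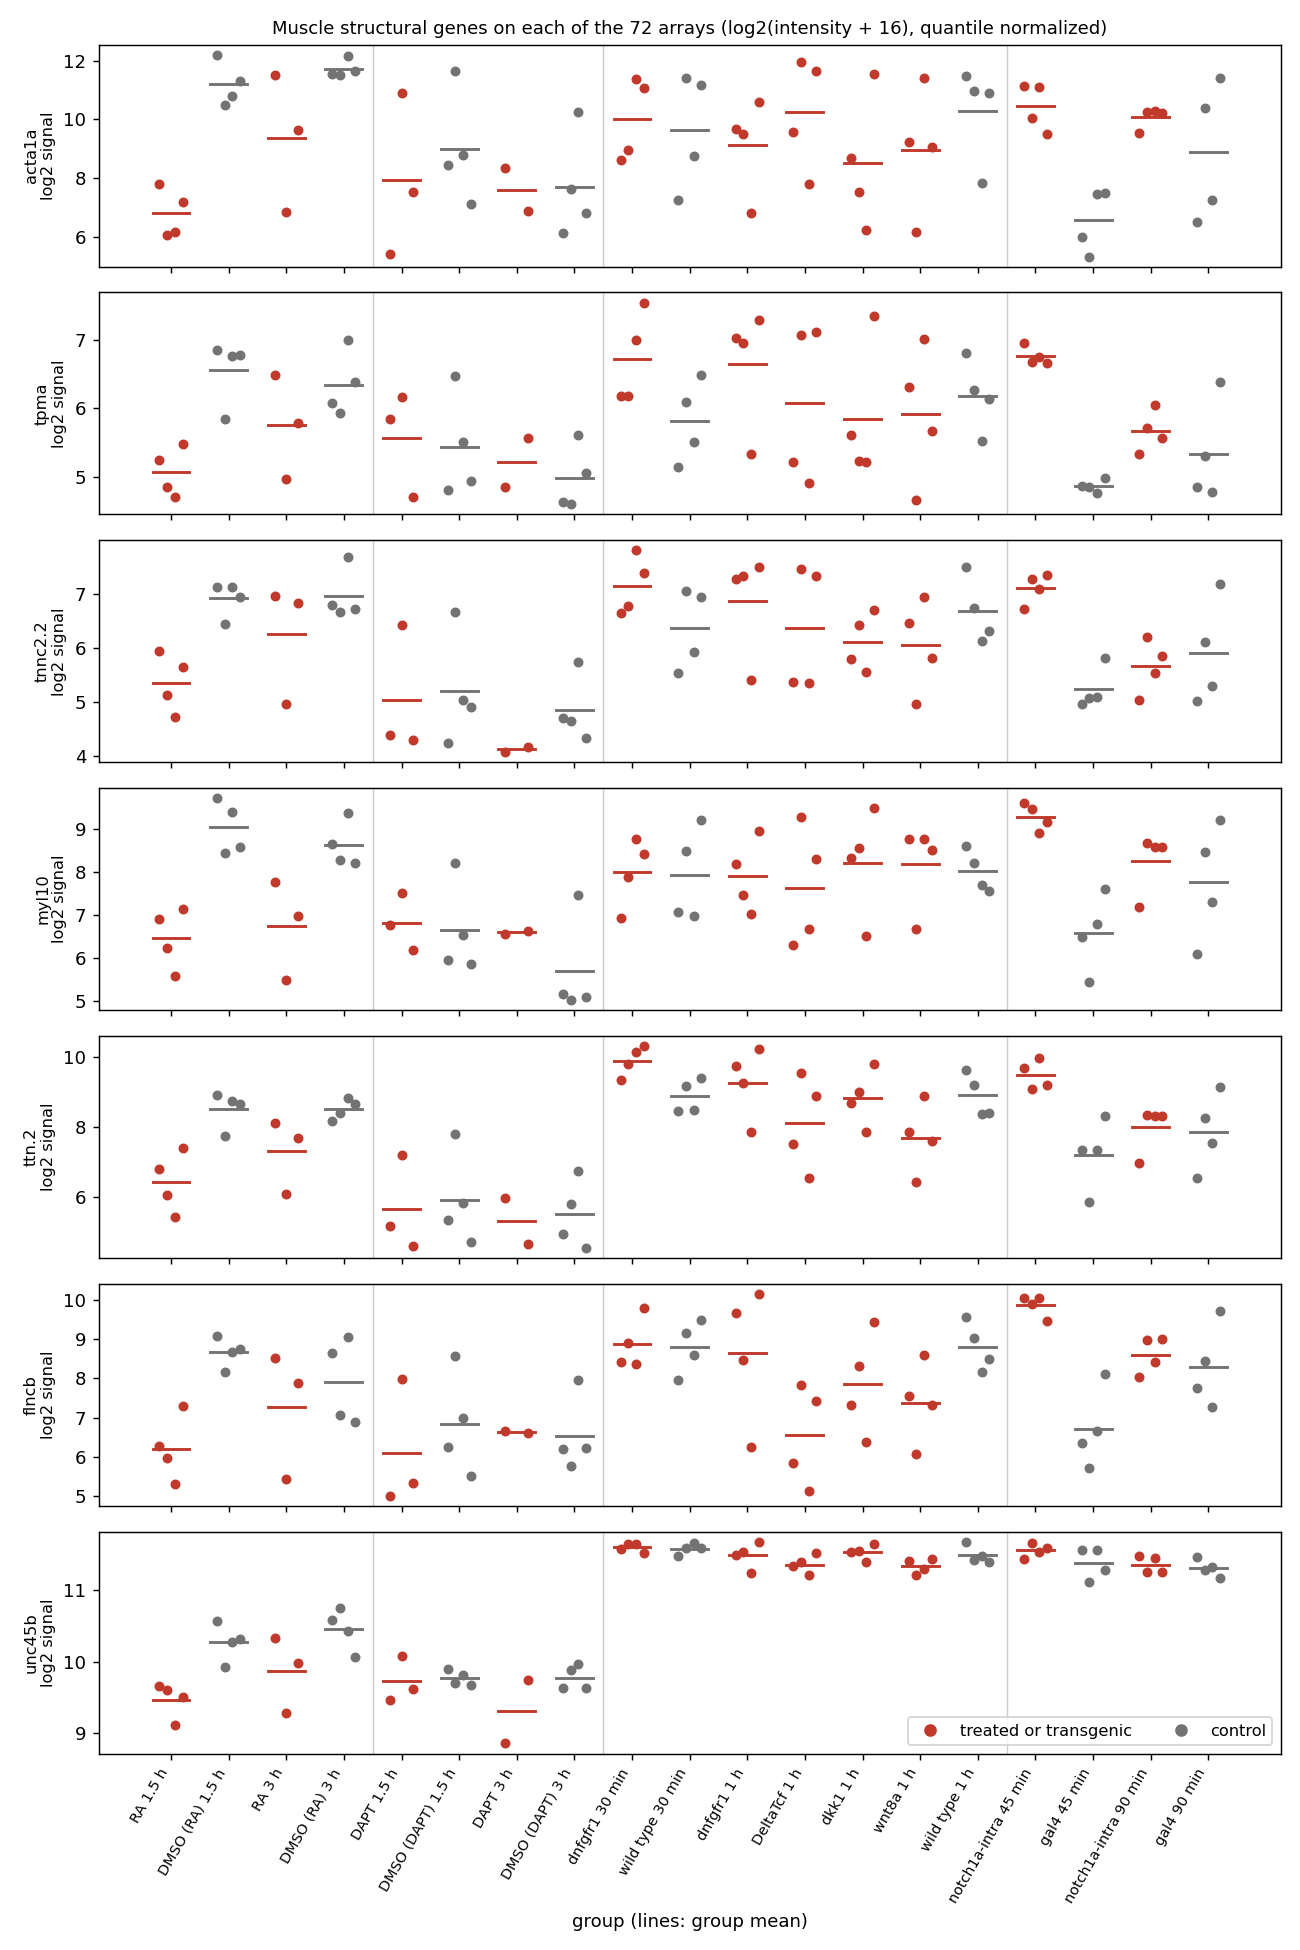
Log2 signal (log2 of intensity plus 16) of each muscle structural gene on each of the 72 arrays, by group, with points for arrays and lines for group means; treated and transgenic groups are red and their controls grey, and vertical lines part the 4 experiments. The 6 filament, scaffold and cross-linker genes scatter inside single groups, by up to 5.48 log2 units for acta1a and up to 2.35 for tpma. Their group means are mostly low in the DAPT experiment, the RA 1.5 h group and gal4 at 45 min. An exception is acta1a with DMSO for 1.5 h in the DAPT experiment, at rank 11 from the top. The chaperone gene unc45b splits into heat-shocked arrays at 11.11 and above and drug or DMSO arrays at 10.75 and below.

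Single genes differed in which group was highest. The notch1a-intra group at 45 min had the highest mean for tpma, myl10 and flncb, at 6.76, 9.27 and 9.87. The dnfgfr1 group at 30 min had it for tnnc2.2, ttn.2 and unc45b, at 7.15, 9.91 and 11.59, and DMSO for 3 h in the RA experiment had it for acta1a, at 11.73. The lowest mean fell to gal4 at 45 min for acta1a and tpma, at 6.56 and 4.87, and to groups of the DAPT experiment for the other five. Steps between neighbouring groups in each order were not tested as such. For acta1a, tpma, tnnc2.2, myl10, ttn.2 and flncb, 0 of the 18 steps between adjacent group means were larger than the standard deviation within groups. That is the spread of single arrays and not of means, and steps between so many ranked means are small by their number. The count therefore does not show that neighbours were alike. For unc45b 3 of 18 steps were larger than it, the largest being 0.84 log2 units between the lowest heat-shocked group and the highest group without heat shock.

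Whether the genes move together from one array to the next was examined on deviations from the group means, which removes the mean effect of each treatment. An effect that differed between arrays of 1 group would remain. The 6 genes other than unc45b rose and fell as a block: their 15 pairs had Pearson's r from 0.80 to 0.87 over 72 arrays, each with an adjusted p of 1.4e-05 (permutation test within groups, two-sided, Benjamini-Hochberg over 21 pairs, from the smallest p that 100000 permutations can give, 1e-05). The tightest pairs were ttn.2 with acta1a, with myl10, with tnnc2.2 and with flncb, and tnnc2.2 with flncb, all at 0.87. Spearman's rho passed for all 21 pairs too, and leaving out the 2 arrays farthest from the median of the first gene left every pair between 0.31 and 0.87. On 31 of the 72 arrays all 7 genes lay on the same side of their group means, above on 16 arrays and below on 15. The first principal component of the 7 scaled deviations held 77.3% of their variance. For comparison, 0.909% of all probe sets tested had r above 0.5 with acta1a, and the median r was -0.01.

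Inside each experiment the 6 genes again moved together. The median r of the 21 pairs was 0.83 in the RA experiment (15 arrays), 0.86 in the Fgf and Wnt heat shock experiment (28 arrays), 0.80 in the DAPT experiment (13 arrays) and 0.74 in the notch heat shock experiment (16 arrays). Chaperone gene unc45b followed the others loosely, with r from 0.34 with ttn.2 to 0.44 with flncb over all arrays (adjusted permutation p from 0.00159 to 0.015). In the RA and the Fgf and Wnt experiments its r with the other 6 reached 0.59 to 0.77, and in the notch experiment it was negative with all 6, from -0.49 to -0.24. In the DAPT experiment it was 0.20 to 0.40. The relation of unc45b to the other genes therefore rests mainly on the RA and the Fgf and Wnt experiments.

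The genes differed in how far they moved for a given shift of the rest. For each log2 unit by which the mean of the other 6 genes deviated from its group mean, acta1a deviated by 2.19 units. The slope was 1.2 for flncb, 1.04 for myl10 and 1.03 for ttn.2 and it was lower for tnnc2.2 at 0.82 and tpma at 0.69. It was 0.09 for unc45b. The correlation with the mean of the other 6 was 0.87 to 0.92 for the 6 genes and 0.40 for unc45b.

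**Figure D2:**
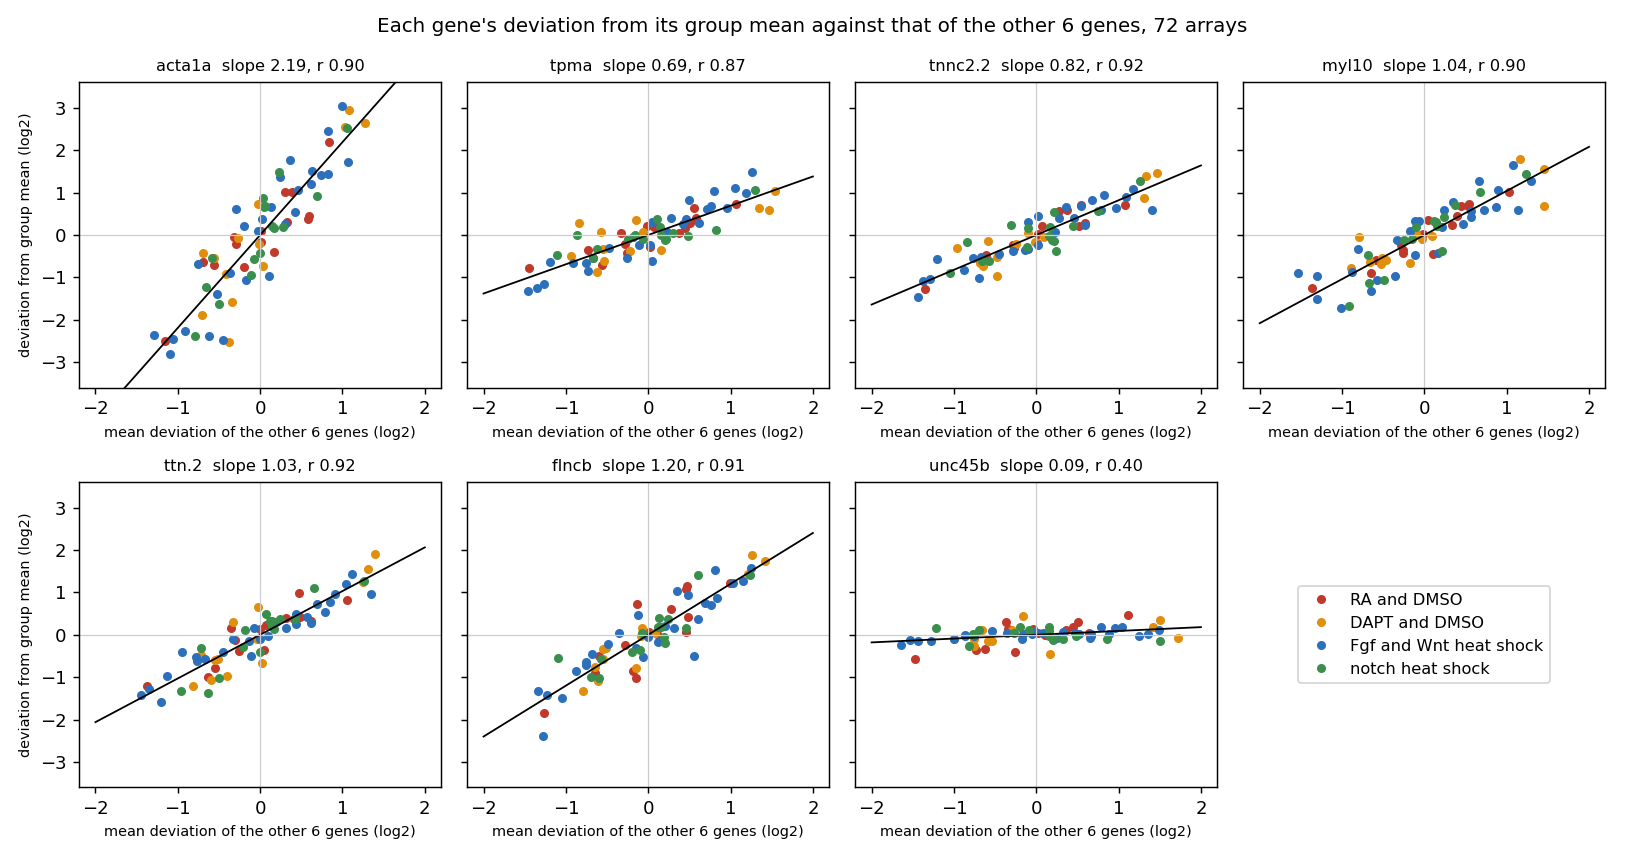
Deviation of each gene from its group mean (vertical, log2) against the mean deviation of the other 6 genes on the same array (horizontal, log2), 72 points coloured by experiment, with the fitted line through the origin. The line is steepest for acta1a at 2.19 and nearly flat for unc45b at 0.09. Each line was fitted over all 4 experiments together, and no line was fitted to a single experiment.

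The chaperone gene unc45b encodes a protein that folds myosin together with Hsp90. Its level was 11.11 to 11.67 on the 44 heat-shocked arrays, against 8.86 to 10.75 on the 28 arrays treated with drug or DMSO, with no overlap. The Hsp90 gene hsp90aa1.1, which had the highest correlation with it of all genes over the 72 arrays (r = 0.70 within groups), lay at 11.84 to 12.85 on the heat-shocked arrays, against 9.88 to 11.92 on the others. The other 6 genes overlapped between the same sets of arrays, acta1a for example at 5.32 to 11.95 with heat shock and 5.42 to 12.21 without. Heat shock and experiment cannot be told apart here, since no experiment held both kinds of array, so this is a description.

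In RA for 1.5 h against DMSO all 7 genes were lower, with no overlap between the 4 arrays of each group, and 5 of them passed the test: acta1a, myl10, flncb, ttn.2 and unc45b fell, while tpma and tnnc2.2 narrowly missed. The median log2 difference of the 7 genes was -2.10, beside -0.02 over all probe sets tested. Of all probe sets tested 4.34% were called and 1.97% were called lower, and the arrays of the groups did not overlap for 12.7%, or 7.49% with the RA arrays lower. In tissue made of many cells, fewer muscle cells and less RNA per muscle cell cannot be told apart.

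Actin gene acta1a showed the largest difference of the 7. Its deposited intensity was 214.9, 48.6, 57.7 and 133.3 in the 4 RA arrays, against 4177, 1367, 1808 and 2396 in the DMSO arrays. On the log2 scale it was 7.80, 6.04, 6.17 and 7.18 with RA and 12.21, 10.50, 10.81 and 11.30 with DMSO, so the highest RA array lay well below the lowest DMSO array. The difference was -4.41 ± 1.19 (SE), 21.2-fold, with adjusted p = 0.0182 (limma, Benjamini-Hochberg over all probe sets tested, as for every adjusted p of a comparison below).

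Tropomyosin, which lies along the actin filament, is encoded by tpma. It was at 5.25, 4.86, 4.71 and 5.48 in the RA arrays and at 6.85, 5.85, 6.76 and 6.78 in the DMSO arrays. The groups did not overlap, with DMSO replicate 2 nearest to the RA arrays, and the difference of -1.48 ± 0.47 had adjusted p = 0.0544. Troponin C, the calcium sensor of the thin filament, is encoded by tnnc2.2, which was at 5.94, 5.13, 4.73 and 5.64 with RA against 7.14, 6.45, 7.13 and 6.95 with DMSO. Its difference of -1.56 ± 0.52 also missed, with adjusted p = 0.0737. Fitted without the other 17 groups, both passed (adjusted p = 0.0121 for tpma and 0.0124 for tnnc2.2). All 7 genes were then called, among 415 probe sets in all.

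The myosin light chain gene myl10 was at 6.91, 6.22, 5.57 and 7.14 with RA, against 9.71, 8.43, 9.39 and 8.57 with DMSO. It fell by 2.57 ± 0.66 on the log2 scale, 5.92-fold, with adjusted p = 0.0119. Titin gene ttn.2, whose product sets the length of the sarcomere, was at 6.80, 6.04, 5.42 and 7.41 with RA and at 8.92, 7.73, 8.74 and 8.66 with DMSO. It fell by 2.1 ± 0.63 (adjusted p = 0.0426) by its brightest probe set, whereas the second, dimmer one differed by -1.44 ± 0.56 and did not pass (adjusted p = 0.142). The groups did not overlap by either probe set.

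Filamin C, encoded by flncb, anchors actin at the Z-disc and at the ends of the fibre. Its level was 6.27, 5.97, 5.31 and 7.30 with RA, against 9.09, 8.17, 8.68 and 8.74 with DMSO. It fell by 2.46 ± 0.74 (adjusted p = 0.0409). The chaperone gene unc45b was at 9.66, 9.60, 9.12 and 9.50 with RA and at 10.57, 9.93, 10.27 and 10.31 with DMSO. Its drop of 0.80 ± 0.15 was the smallest of the 7 in size and had the smallest adjusted p in the fit of all groups, 0.000118. That fit pools the spread over all groups. The SD of unc45b was 0.06 to 0.22 in the heat-shocked groups, against 0.24 with RA and 0.27 with DMSO here. With only the compared groups fitted, adjusted p was 0.0213 for unc45b and 0.00288 for acta1a.

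Within the groups the same arrays stood out for nearly every gene. DMSO replicate 1 was highest and replicate 2 lowest for all 7 genes. RA replicate 3 was the lowest for 6 of the 7, acta1a being the exception. The count of 5 genes called, among 439 probe sets in all, depends on single arrays. It was 1 without RA replicate 3 (316 probe sets in all). It was 2 without DMSO replicate 1 (383), DMSO replicate 3 (246) or RA replicate 2 (296), and 3 without DMSO replicate 4 (291) or RA replicate 1 (394). The gene that stayed called in all of these was unc45b.

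**Figure D3:**
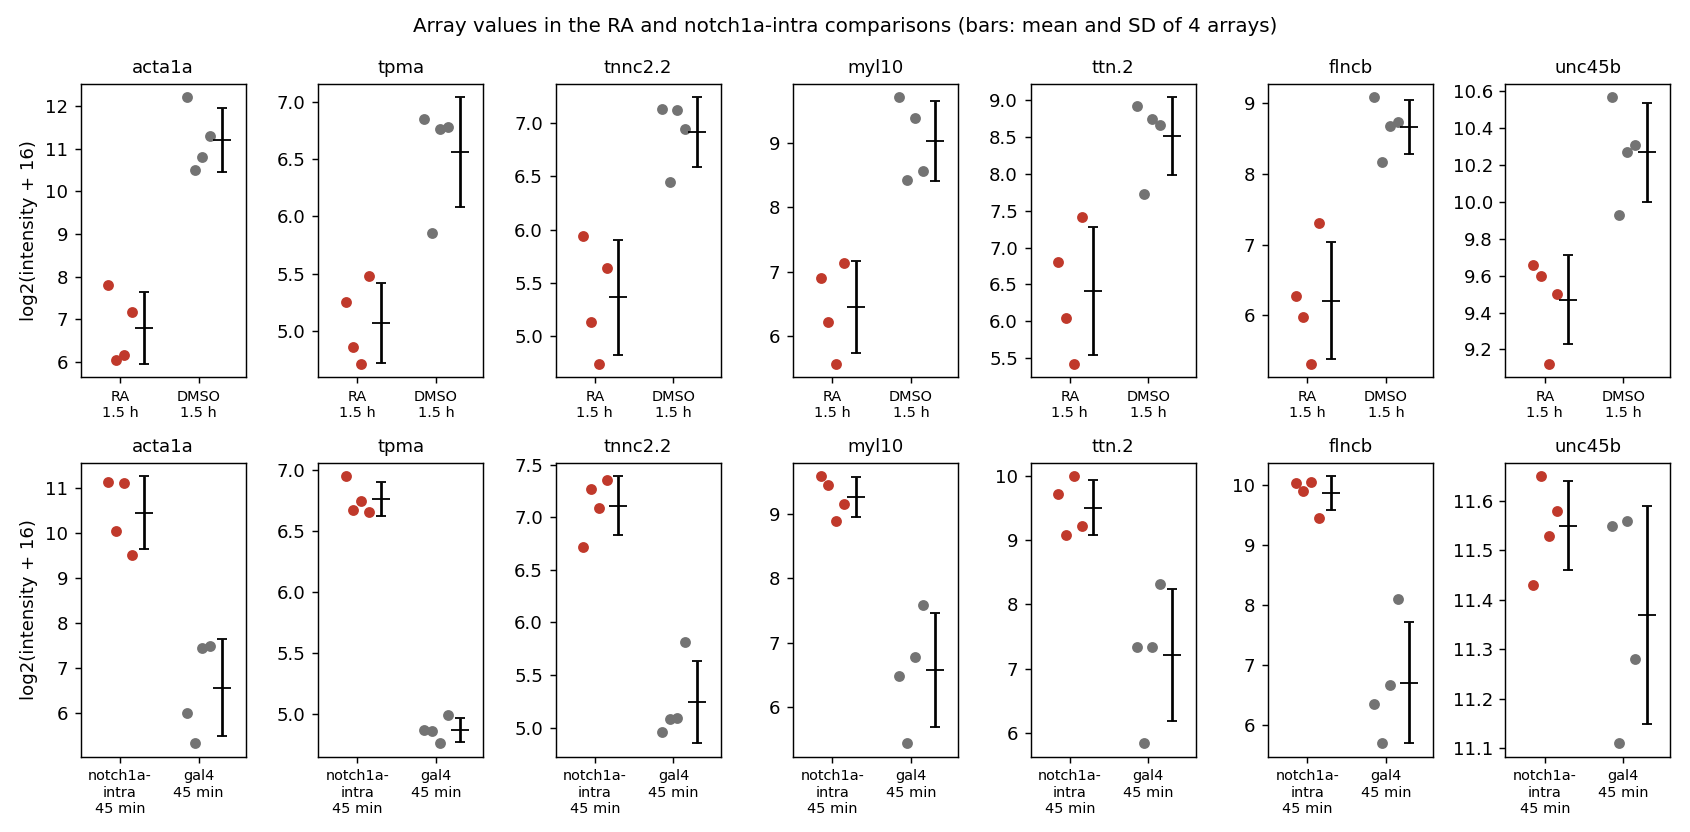
Log2 signal (log2 of intensity plus 16) of the 7 genes on single arrays, above for RA 1.5 h (red, left) and DMSO (grey, right), below for notch1a-intra 45 min (red, left) and gal4 (grey, right); points are arrays, bars the mean and SD of 4 arrays, and each panel has its own scale. With RA all 7 genes lie below every DMSO array, and with notch1a-intra 6 lie above every gal4 array while unc45b overlaps.

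The differences can be set beside the slopes that the genes had between arrays of 1 group. In RA for 1.5 h the difference of acta1a was 2.41 times the mean difference of the other 6 genes, beside its within-group slope of 2.19. The ratio was 1.2 for myl10, 1.14 for flncb and 0.95 for ttn.2, and 0.68 for tnnc2.2 and 0.64 for tpma. For unc45b the ratio was 0.33, beside a slope of 0.09 over all 72 arrays. That slope pools experiments that differed, since r of unc45b with the other 6 genes was 0.59 to 0.77 in the RA experiment and negative in the notch one. No slope was fitted for the RA experiment alone, so ratio and slope of unc45b cannot be compared closely. The mean of the other 6 genes on each array was also used as a covariate, an alternative added after seeing the data. The difference of unc45b was then -0.57 at 1.5 h, which passed (adjusted p = 0.0258). At 3 h it was -0.47 and did not pass (adjusted p = 0.0775). The covariate had a common slope for all experiments, and at 1.5 h the other 6 genes did not overlap between RA and DMSO. That fit therefore cannot decide whether unc45b fell beyond the shift of the other genes. At 3 h of RA the ratios lay farther from the slopes for some genes, at 1.85 for myl10 and 0.52 for flncb.

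Other markers moved in the same comparison. The mean level of 21 tested genes from a wider muscle list was 6.12 to 6.36 in the RA arrays and 6.51 to 7.04 in the DMSO arrays, with 0 genes higher and 1 lower, the cardiac-type actin gene actc1b (-1.31 ± 0.39, adjusted p = 0.0401). Of 10 myogenic regulators 0 rose and 3 fell. The muscle determination gene myf5 fell by 1.25 ± 0.22, six4b by 0.86 ± 0.22 and the myogenic factor mef2d by 1.29 ± 0.35. Of 19 genes of somites and anterior PSM 5 fell and 2 rose, with the smallest adjusted p for mespaa and snai1a (-2.78 ± 0.29 and -1.99 ± 0.22). Of 22 genes of tail bud and posterior PSM 6 fell and 0 rose, with the smallest adjusted p for vox and msgn1 (-2.22 ± 0.33 and -0.47 ± 0.08).

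Markers of tissues next to the PSM were looked at too. The mean levels of the blood, epidermis and neural lists overlapped between the RA and DMSO arrays. The median difference was 1.00 over 15 genes of blood and endothelium, of which 0 were called, and their mean level was 5.88 to 7.41 with RA and 5.23 to 6.45 with DMSO. It was 0.95 over 18 epidermis genes, with 1 higher and 0 lower and with mean levels of 6.72 to 7.98 against 5.31 to 7.57, and 4 of 21 neural genes were higher, with the smallest adjusted p for hoxb1a and olig2 (1.71 ± 0.16 and 3.04 ± 0.33). The 3' minus 5' signal of the GAPDH control, a sign of RNA quality, was 0.55, 0.10, 0.90 and 0.21 in the RA arrays and -0.58, 0.13, -0.59 and -0.31 in the DMSO arrays, overlapping by 1 array of each. Both of its sets were dim on these arrays, at 4.62 to 6.03 beside array medians of 5.425 to 5.569, so here it is a weak sign. The part of these markers and of the control in the result was not tested.

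After 3 h of RA the 7 genes were again all lower than in DMSO, but only unc45b passed, where 3.68% of all probe sets were called and 1.45% called lower. The median difference of the 7 genes was -0.71, beside -0.01 over all probe sets tested. Replicate 2 of the 3 RA arrays was the lowest for all 7 genes. The level of acta1a was 11.53, 6.85 and 9.65 with RA, against 11.55, 11.51, 12.17 and 11.67 with DMSO, so replicate 1 lay among the controls. Its difference of -2.38 ± 1.28 had adjusted p = 0.541.

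For myl10 and ttn.2 the groups did not overlap at 3 h, where 16% of all probe sets did not either. The level of myl10 was 7.76, 5.49 and 6.97 with RA and 8.65, 8.28, 9.37 and 8.21 with DMSO, a difference of -1.89 ± 0.71 (adjusted p = 0.176). That of unc45b was 10.33, 9.29 and 9.98 with RA and 10.58, 10.75, 10.43 and 10.06 with DMSO, which overlap. It fell by 0.59 ± 0.16 (adjusted p = 0.0177), and hsp90aa1.1 fell by 0.86 ± 0.20 beside it (adjusted p = 0.00306). The call of unc45b was lost without RA replicate 2 (difference -0.30, adjusted p = 0.64) and without DMSO replicates 1 or 2 (adjusted p = 0.0662 and 0.116). It was also lost when only the compared groups were fitted (adjusted p = 0.307), so the call rests on the spread pooled over all groups. None of the 7 genes differed between the effects at 3 h and at 1.5 h in limma, with adjusted p of 0.616 to 0.912 and 0 genes at an unadjusted p under 0.05, where 0.721% of all probe sets were called.

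Other lists at 3 h were lower in part. Of the wider muscle list hsp90aa1.1 alone was called, and its mean level was 6.15 to 6.88 with RA and 6.78 to 7.10 with DMSO. Of 10 myogenic regulators 0 were called, with mean levels of 6.41 to 6.90 against 6.95 to 7.21. Of 19 somite and anterior PSM genes 6 fell and 2 rose, with the smallest adjusted p for mespaa and pax9 (-3.51 ± 0.32 and 1.86 ± 0.22), and the list's median difference was -0.63. Of 22 tail bud genes 3 fell and 1 rose, with a median of -0.46, and of 21 neural genes 3 rose. The mean level of 8 yolk and hatching gland genes was 6.66 to 6.93 with RA and 7.05 to 7.60 with DMSO, with 1 lower. Those of blood and endothelium and of epidermis overlapped, and their part in the result was not tested.

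In the libraries labelled notch1a-intra at 45 min against gal4, 6 of the 7 genes rose and none of these 6 overlapped between the groups, whereas unc45b did not pass. The median difference of the 7 genes was 2.29, beside 0.01 over all probe sets tested. Of all probe sets tested 4.09% were called and 2.13% called higher, and 8.78% did not overlap, 4.72% with the notch1a-intra arrays higher. Replicate numbers paired these arrays in the sense that same-numbered arrays deviated together (r of 0.21 to 0.31 in the 4 pairs). With the number as a block, fitted on these 8 arrays, the same 6 genes were called (adjusted p from 0.00611 to 0.04), and 158 probe sets in all. The same 8 arrays without the block gave 61 probe sets and 5 of the 6 genes, ttn.2 missing (adjusted p = 0.0651), beside 414 probe sets in the fit of all 72 arrays.

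The level of acta1a was 11.15, 10.04, 11.12 and 9.52 in the notch1a-intra arrays, against 5.99, 5.32, 7.44 and 7.48 in the gal4 arrays. Deposited intensities were 2319, 1032, 2274 and 716.6 against 49.9, 24.6, 161.1 and 169.3. The lowest notch1a-intra array lay above the highest gal4 array by about 2 log2 units, and the difference was 3.90 ± 1.19, 15-fold (adjusted p = 0.0459). Tropomyosin gene tpma was at 6.95, 6.67, 6.75 and 6.66 with notch1a-intra and at 4.87, 4.86, 4.76 and 4.99 with gal4. The level of tpma rose by 1.89 ± 0.47 (adjusted p = 0.0106). Both groups were tight, but the gal4 values lay near the bottom of the scale, 4, where differences are compressed.

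Troponin C gene tnnc2.2 was at 6.72, 7.27, 7.09 and 7.35 with notch1a-intra, against 4.96, 5.08, 5.09 and 5.81 with gal4, and rose by 1.87 ± 0.52 (adjusted p = 0.0259). The myosin light chain gene myl10 was at 9.59, 9.45, 8.89 and 9.16 with notch1a-intra, against 6.48, 5.43, 6.78 and 7.59 with gal4, and rose by 2.70 ± 0.66 (adjusted p = 0.00912). For each of these genes, gal4 replicate 4 came nearest to the notch1a-intra arrays. Titin gene ttn.2 was at 9.71, 9.08, 9.99 and 9.21 with notch1a-intra, against 7.33, 5.84, 7.34 and 8.32 with gal4. It rose by 2.29 ± 0.63 (adjusted p = 0.0259), and its second probe set by 2.27 ± 0.56 (adjusted p = 0.00939).

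Filamin gene flncb was at 10.04, 9.91, 10.06 and 9.46 with notch1a-intra, against 6.36, 5.71, 6.67 and 8.11 with gal4. It rose by 3.16 ± 0.74, 8.91-fold, with the smallest adjusted p of the 7 genes, 0.00675. The chaperone gene unc45b was at 11.43, 11.65, 11.53 and 11.58 with notch1a-intra, against 11.55, 11.11, 11.56 and 11.28 with gal4. These overlap, and the difference of 0.18 ± 0.15 did not pass (adjusted p = 0.573).

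The replicates 2 and 4 labelled notch1a-intra, in which notch1a was near the gal4 level, also lay above every gal4 array for the 6 genes. For acta1a, tpma, ttn.2 and flncb both lay below replicates 1 and 3, by the most for acta1a. Without both, 5 of the 6 stayed called, with differences of 4.58 for acta1a, 3.34 for flncb, 2.67 for myl10, 2.64 for ttn.2 and 1.98 for tpma. In that fit 1187 probe sets were called in all, beside 414 with all arrays kept. The difference of tnnc2.2 was then 1.67 (adjusted p = 0.0854). The count of genes called was 2 without gal4 replicate 2 (302 probe sets in all) and 3 without notch1a-intra replicate 3 (244). It was 4 without gal4 replicate 1 (376) or notch1a-intra replicate 1 (321). Relative to the mean difference of the other 6 genes the differences were 1.94 times as large for acta1a, 1.48 for flncb, 1.22 for myl10, 1.00 for ttn.2, 0.80 for tnnc2.2 and tpma, and 0.07 for unc45b.

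Of the wider muscle list 2 of 21 tested genes rose, actc1a (0.95 ± 0.27, adjusted p = 0.0276) and nexn (1.98 ± 0.60, adjusted p = 0.0453), and 0 fell. The list's mean level was 6.62 to 6.86 with notch1a-intra and 6.08 to 6.48 with gal4. Of 10 myogenic regulators, myod1 rose by 1.43 ± 0.39 (adjusted p = 0.0247) and jam2a, which codes for an adhesion protein of myocyte fusion, fell by 1.61 ± 0.30 (adjusted p = 0.000367). The regulators' mean level was 6.95 to 7.23 with notch1a-intra and 6.76 to 6.93 with gal4, without overlap. Among notochord and floor plate genes ntd5 rose by 2.32 ± 0.65, 1 of 10 tested. The mean level of that list was 6.69 to 6.94 with notch1a-intra and 5.95 to 6.62 with gal4, also without overlap, and its median difference was 0.15.

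Blood markers lay the other way. The mean level of 15 blood and endothelium genes was 5.03 to 6.43 with notch1a-intra and 6.56 to 7.98 with gal4, without overlap, and their median difference was -1.30. The gal4 controls alone differed as well: at 90 min the level was 4.94 to 6.43, below all gal4 arrays at 45 min. The median difference between those times was -1.77, with 3 genes lower. For notch1a-intra at 90 min against gal4 it was 0.53, and the levels overlapped. At 45 min 1 of the 15 genes fell with notch1a-intra, cahz, and of 18 epidermis genes 1 fell, krt94 (-1.53 ± 0.21). Of 19 somite and 22 tail bud genes 0 were called, and their mean levels overlapped between the groups. The GAPDH 3' minus 5' signal was 2.62 to 3.33 in the notch1a-intra arrays and 3.35 to 3.86 in the gal4 arrays, without overlap. Their part in the result was not tested.

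At 90 min none of the 7 genes passed in limma, and 0 had an unadjusted p under 0.05. The background was 6.87% of all probe sets called. The level of acta1a was 9.53, 10.25, 10.28 and 10.23 in notch1a-intra, against 6.51, 10.38, 7.25 and 11.41 in gal4. The notch1a-intra arrays were close together and lay inside the range of the gal4 arrays, and the difference was 1.18 ± 1.19 (adjusted p = 0.644). The level of flncb was 8.03, 8.98, 8.42 and 9.0 in notch1a-intra, against 7.76, 8.45, 7.27 and 9.71 in gal4, a difference of 0.31 ± 0.74 (adjusted p = 0.875). The other 5 genes differed by -0.25 to 0.48.

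The effect at 90 min minus that at 45 min was -2.84 ± 1.04 for flncb (adjusted p = 0.215) and -2.12 ± 0.74 for tnnc2.2 (adjusted p = 0.183). Of the 7 genes, 0 passed after adjustment in this contrast in limma, where 0.691% of all probe sets were called. Before adjustment 5 of the 7 had p under 0.05. The share of all probe sets at an unadjusted p under 0.05 was not counted in any comparison or contrast. Most of the genes moved together too, so the count of 5 cannot be weighed. The controls also differed: in gal4 at 90 min against 45 min the median difference of the 7 genes was 0.67, with acta1a at 2.33 ± 1.19 (adjusted p = 0.301) and flncb at 1.58 ± 0.74 (adjusted p = 0.237). None of the 7 passed in that comparison, 1 had an unadjusted p under 0.05, and 5.12% of all probe sets were called.

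In the Fgf and Wnt heat shock experiment 1 gene was called in 1 comparison. The filamin gene flncb was at 5.85, 7.82, 5.14 and 7.43 in the libraries labelled DeltaTcf, against 9.57, 9.02, 8.16 and 8.49 in heat-shocked wild type, without overlap. It fell by 2.25 ± 0.74 (adjusted p = 0.0229) where 20.6% of all probe sets were called, 10.6% lower, and 24.4% did not overlap. The call was lost without wild-type replicates 1 or 2 or DeltaTcf replicates 1 or 3 (adjusted p from 0.0517 to 0.117) and when only those 8 arrays were fitted (adjusted p = 0.0555). The myogenic factor mef2d fell by 1.36 ± 0.35 in the same comparison (adjusted p = 0.00352), 1 of 10 tested myogenic regulators, while 0 of 21 wider muscle genes were called.

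The comparisons at 1 h share their wild-type arrays. Beside its -2.25 in DeltaTcf, flncb differed by -0.95 ± 0.74 in dkk1, -1.43 ± 0.74 in wnt8a and -0.17 ± 0.74 in dnfgfr1. The level of flncb was 7.33, 8.32, 6.38 and 9.43 in dkk1 and 7.54, 6.07, 8.60 and 7.33 in wnt8a, and both sets overlapped the wild type. The differences of acta1a were -0.06 ± 1.19 in DeltaTcf, -1.80 ± 1.19 in dkk1, -1.33 ± 1.19 in wnt8a and -1.15 ± 1.19 in dnfgfr1. Those of tpma, tnnc2.2, myl10 and ttn.2 lay between -1.22 and 0.47 in these 4 comparisons, and those of unc45b between -0.15 and 0.04. Except for flncb in DeltaTcf none passed in limma, and 0 others had an unadjusted p under 0.05. The shares of all probe sets called were 24.6% in dkk1, 16.2% in wnt8a and 3.42% in dnfgfr1. In the contrast of the dnfgfr1 effects at 1 h and 30 min 0 of the 7 genes passed or were under 0.05 unadjusted, and 0.375% of all probe sets were called.

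In dnfgfr1 at 30 min, where 3% of all probe sets were called, all 7 genes were slightly higher than in wild type and 0 passed or had an unadjusted p under 0.05. The differences ran from 0.01 ± 0.15 for unc45b to 1.02 ± 0.63 for ttn.2 (adjusted p = 0.51). Titin gene ttn.2 was at 9.34, 9.81, 10.15 and 10.33 in dnfgfr1, against 8.47, 9.17, 8.48 and 9.42 in wild type, so only 1 dnfgfr1 array lay within the wild-type range. Wild type at 1 h against 30 min gave differences of -0.09 to 0.65, with 0 genes called or under 0.05 unadjusted and 4.37% of all probe sets called.

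With DAPT none of the 7 genes was called at 1.5 h or at 3 h, where 4.09% and 5.35% of all probe sets were. At 1.5 h acta1a was at 5.42, 10.90 and 7.52 with DAPT, against 8.46, 11.64, 8.79 and 7.10 with DMSO, a difference of -1.05 ± 1.28 (adjusted p = 0.732). Replicate 2 was the highest array in both of these groups. The differences of the other 6 genes were -0.72 to 0.18, and 0 genes had an unadjusted p under 0.05.

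At 3 h, with only 2 DAPT arrays, the differences ran from -0.75 ± 0.64 for tnnc2.2 to 0.91 ± 0.81 for myl10. The level of tnnc2.2 was 4.07 and 4.17 with DAPT, near the bottom of the scale, against 4.71, 4.65, 5.74 and 4.34 with DMSO. These did not overlap, as for 20.8% of all probe sets, and adjusted p was 0.554. At an unadjusted p under 0.05 there was 1 gene, unc45b, which was at 8.86 and 9.75 with DAPT and 9.63, 9.88, 9.96 and 9.63 with DMSO (difference -0.47 ± 0.18, adjusted p = 0.119). Beside it hsp90aa1.1 fell by 0.75 ± 0.23 (adjusted p = 0.0364). Its 2 DAPT arrays lay apart (SD 0.81, against 0.25 with DMSO), and the groups overlapped. Between the DAPT effects at 3 h and 1.5 h 0 of the 7 genes passed or were under 0.05 unadjusted, and 3.96% of all probe sets were called. The DMSO groups at 3 h against 1.5 h gave median differences of 0.00 in the RA experiment and -0.41 in the DAPT experiment, again with 0 genes called or under 0.05 unadjusted, beside 4.37% and 4.83% of all probe sets called.

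**Figure D4:**
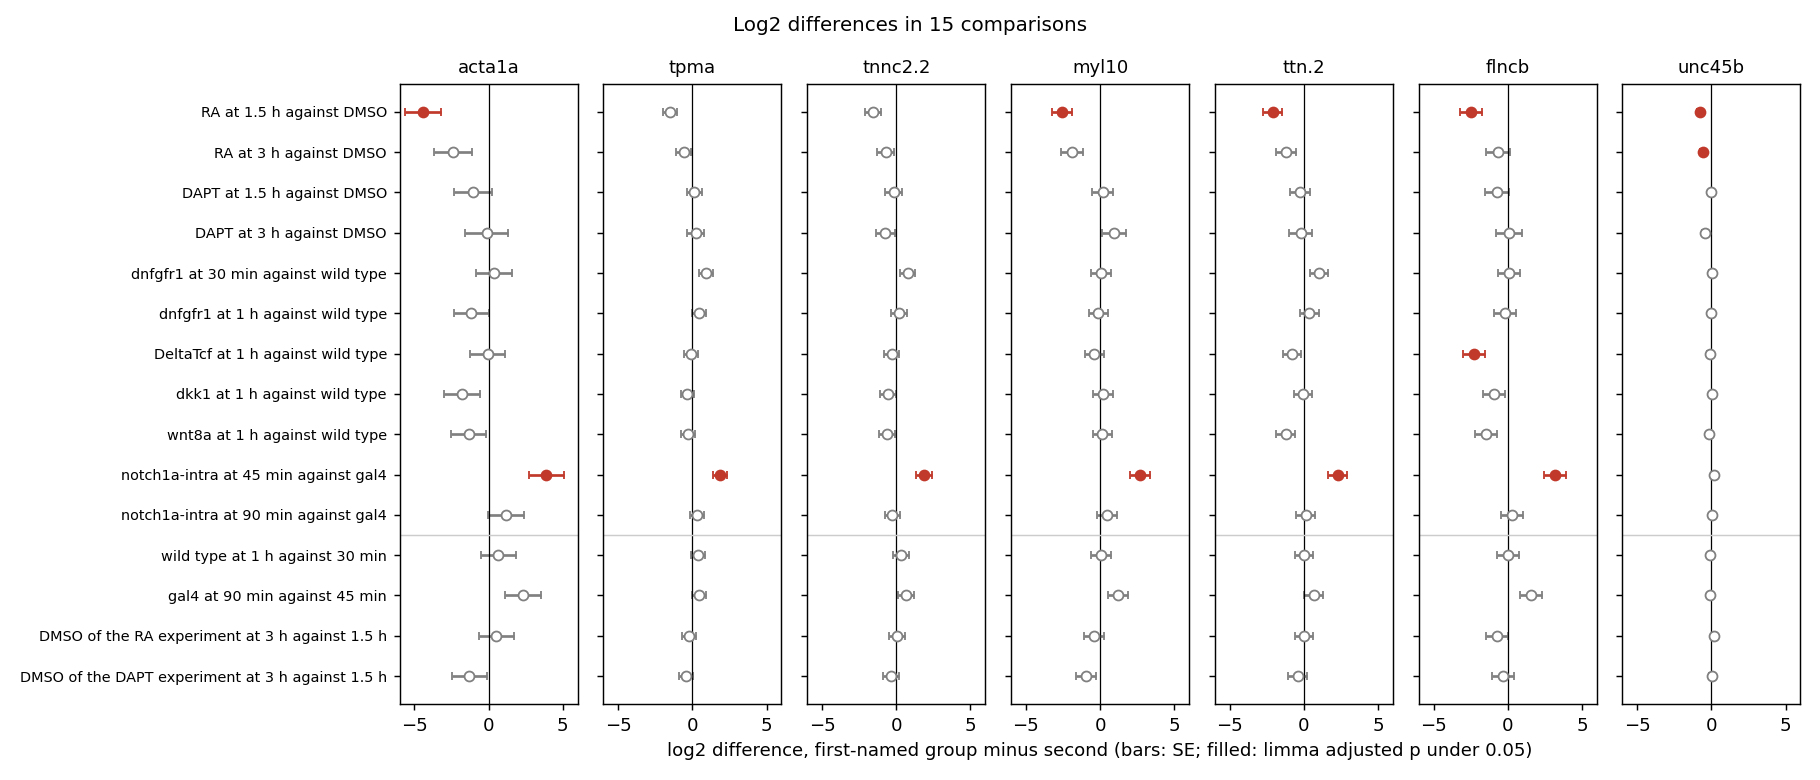
Log2 difference (first-named group minus second) of each muscle structural gene in 11 treatment comparisons and, below the line, 4 comparisons of controls between times; bars are standard errors and filled points have a limma adjusted p under 0.05. The filled points are 5 genes in RA at 1.5 h, unc45b in RA at 3 h, flncb in DeltaTcf and 6 genes in notch1a-intra at 45 min, and standard errors are widest for acta1a at about 1.19 and narrowest for unc45b at about 0.15.

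Over all 10126 probe sets tested, the genes nearest to the 6 in their deviations within groups were largely other genes of muscle. For acta1a these were ttn.2 (r = 0.87) and tnnc2.2, flncb and the cardiac-type actin gene actc1a (0.84 each). Outside the 7, the highest for ttn.2 were actc1a (0.88), the myosin-binding protein gene mybphb (0.83) and actc1b (0.82). For tpma it was actc1b (0.84), for tnnc2.2 actc1b and mybphb (0.83 each), and for myl10 and flncb actc1a (0.84 each). A second gene common to several was ntd5, at 0.81 with both myl10 and ttn.2. For unc45b the nearest were hsp90aa1.1 (0.70), tcf12 (0.63) and zfand5a (0.61), and none of the other 6 muscle genes was among its first 10.

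The mean of the 7 genes was then set beside lists of genes for the tissues that the dissection could hold. Of 21 tested genes of wider muscle structure, 9 had r above 0.5 with it, and the median was 0.47. Besides actc1a at 0.89, mybphb at 0.88 and actc1b at 0.87, these were tnni2b.1, actn3b, nexn, klhl41b, desma and smyhc1 at 0.51 to 0.81. Others on the list did not follow: tnnt3b was at 0.19, and the creatine kinase gene ckma, at a mean level of 4.80 near the bottom of the scale, at 0.04. For comparison 0.929% of the other probe sets tested had r above 0.5, and their median was -0.01.

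Upstream regulators followed in part. Of 10 myogenic regulators 3 were above 0.5, mef2d at 0.77, myod1 at 0.66 and myog at 0.63, whereas the early determination gene myf5 was at 0.39 and jam2a at -0.07. Of 19 genes of somites and anterior PSM 3 were above 0.5, foxc1b at 0.59, aplnra at 0.57 and mespaa at 0.53, and the list's median was 0.17. Of 22 genes of tail bud and posterior PSM 1 was, tbx6 at 0.53, with a median of -0.09. Of 10 notochord and floor plate genes 2 were, ntd5 at 0.83 and ccn2a at 0.54.

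The other tissues did not rise with them. Only 2 of 10 heart genes and 3 of 5 smooth muscle genes on the array could be tested, so little can be said of either tissue. None of 21 neural, 18 epidermis, 15 blood and endothelium, 8 yolk and hatching gland, 3 smooth muscle and 2 heart genes had r above 0.5. Blood and endothelium had the lowest median of these lists, at -0.40, and 5 of its 15 genes lay below -0.5, tal1 lowest at -0.59, where 0.168% of the other probe sets did. The epidermis median was -0.20. Within groups, the level of the arrays as such moved little with the 7 genes, with r of -0.13 for the array median and -0.15 for the 3' minus 5' signal of the GAPDH control. The array's own actin controls, which the annotation assigns to actc1b, were at 0.75 for the 3' set, 0.74 for the middle set and -0.17 for the 5' set, and at 0.80 for the 3' minus 5' signal.

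**Figure D5:**
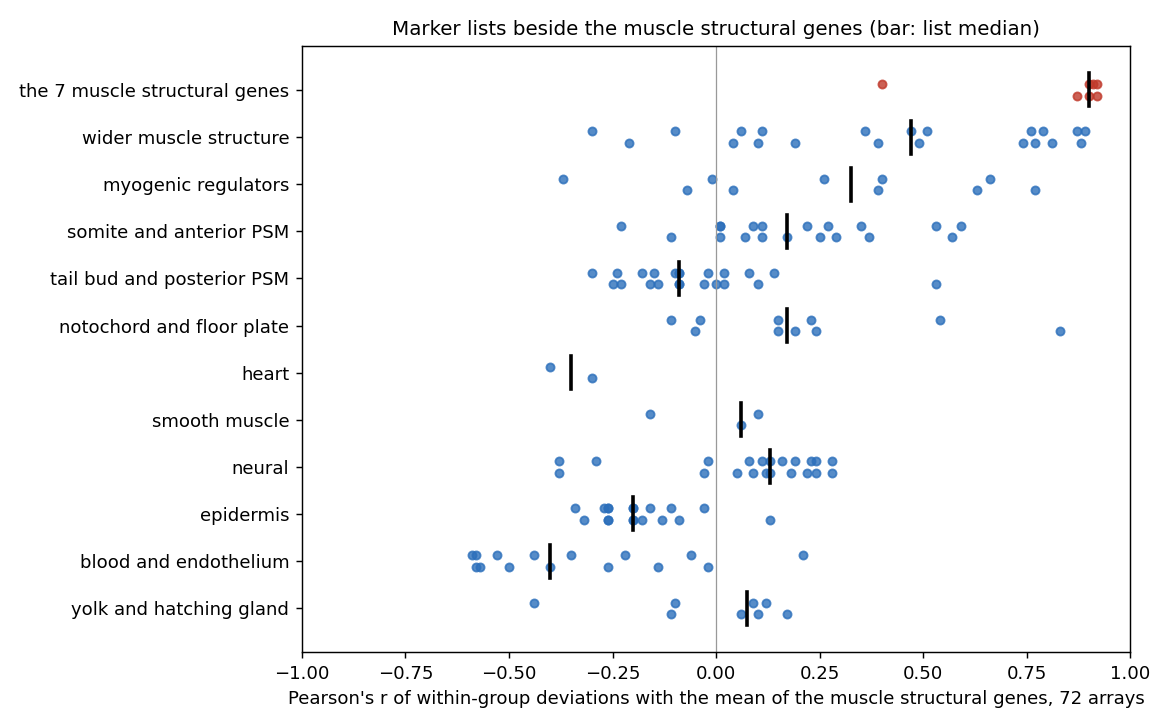
Pearson's r between the within-group deviations of each gene and those of the mean of the muscle structural genes over 72 arrays (horizontal, from -1 to 1), by gene list (vertical), with points for genes and a bar for the list median; for the 7 genes themselves r is with the mean of the other 6. The 6 filament, scaffold and cross-linker genes lie at 0.87 to 0.92 and unc45b at 0.40, the wider muscle list spreads from -0.30 to 0.89, and the blood and endothelium list has a median of -0.40.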

How the data were processed

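Amplified RNA was hybridized to Affymetrix zebrafish arrays. The authors made linear intensity values with MAS5, per the submitters' processing notes, and the sources used here do not give its version. With 2% trimmed at either end, the mean of the deposited intensities was 150 on each array. From these, 16 was added, log2 taken and the arrays quantile normalized, since medians spanned 0.741 log2 units. That compresses differences of dim probe sets. The 115 control probe sets were left out. Names came from the platform annotation, brought up to date by Entrez identifier from RefSeq genes (assembly GRCz12tu); 10795 probe sets had 1 symbol, 135 several and 4572 none. Coordinates are not given, since no build is stated for the probe sets.

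Groups were taken from the labels. limma 3.58.1 (R 4.3.3, statmod 1.5.0) fitted 19 group means over 72 arrays, with trend and robust moderation, two-sided tests and Benjamini-Hochberg adjustment over 10126 probe sets within each of 15 comparisons and 4 contrasts between times, threshold 0.05. The fit and the correlation test were tested on simulated data. Precision is limited by the number of arrays. No 2 arrays held identical values (highest correlation 0.9918). P-values measure the spread between these arrays. The 7 genes and all lists were chosen with earlier results of these data known, and patterns already known from them are no independent evidence. Named were all 7 genes, their nearest genes by correlation, and in comparisons with a called gene up to 4 called genes of the wider muscle and myogenic lists and up to 2 of each other list. Alternatives were the deposited scaling, median centring, added values of 1 and 64, no filter and a filter of 36 arrays, the compared groups alone, replicate number as a block, array weights, plain moderation and each array left out.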

Additional observations from a re-analysis of the deposited data

Results flagged for a closer look

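In groups of 4 arrays, 128 sets of values (7 genes and their mean in 16 groups) were examined for an array that stood apart from the other 3 by Dixon's criterion, and 12 were found. Chance alone would give about 1 in 20 if the sets were independent. They were not, since the genes share arrays, most of them moved together within groups, and their mean is a set too. The count of 12 can therefore not be weighed against that rate. In notch1a-intra at 90 min, replicate 1 stood below the other arrays for acta1a (9.53, against 10.23 to 10.28), for myl10 (7.19, against 8.57 to 8.67), for ttn.2 (6.97, against 8.32 to 8.36) and for the mean of the 7 genes (7.65, against 8.38 to 8.49). In the DMSO group of the DAPT experiment at 3 h, replicate 3 stood above the others for myl10 (7.47, against 5.02 to 5.15) and for the mean of the 7 genes (7.68, against 5.92 to 6.19).

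The remaining 6 were single genes. The low ones were tpma in DMSO replicate 2 of the RA experiment at 1.5 h (5.85, against 6.76 to 6.85), tnnc2.2 in dnfgfr1 replicate 3 at 1 h (5.41, against 7.27 to 7.51), acta1a in wild-type replicate 3 at 1 h (7.82, against 10.90 to 11.50) and myl10 in wnt8a replicate 2 (6.66, against 8.51 to 8.76). The high ones were tnnc2.2 in DMSO replicate 3 of the RA experiment at 3 h (7.68, against 6.67 to 6.79) and tnnc2.2 in gal4 replicate 4 at 45 min (5.81, against 4.96 to 5.09). On each of these 6 arrays the mean of the 7 genes was its group's lowest or highest as well.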

How the results depend on the processing

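The median difference of the 7 genes stayed negative for RA at 1.5 h over all alternatives (-2.37 to -1.59, and -2.43 to -1.76 with 1 array left out) and positive for notch1a-intra at 45 min (1.93 to 2.73, and 1.88 to 2.66). The number of genes called in RA at 1.5 h was 3 with no filter and up to 7 elsewhere, and 1 to 6 with 1 array left out. In RA at 3 h it was 0 with the deposited scaling, with median centring, in the compared groups alone and with the replicate block, 2 with array weights, and 0 to 1 with 1 array left out. In DeltaTcf it was 0 in the compared groups alone and with the replicate block, and 0 to 1 with 1 array left out. In notch1a-intra at 45 min it was 4 with 1 added in place of 16, and 2 to 6 with 1 array left out. In dnfgfr1 at 30 min it was 1 with the replicate block (ttn.2, adjusted p = 0.0208), and in DAPT at 3 h 0 to 1 with 1 array left out (unc45b without DAPT replicate 2, where the 1 DAPT array left is assumed to vary like the other groups). The median r of the 21 pairs was 0.74 within the notch experiment alone. In RA at 1.5 h unc45b kept its call in all 19 alternatives (adjusted p 4.5e-06 to 0.0379), and of 18 each acta1a kept it in 15 (3.69e-05 to 0.0668), myl10 in 16, flncb in 11 and ttn.2 in 10. Of 18 each, unc45b in RA at 3 h kept it in 10 and flncb in DeltaTcf in 12. In notch1a-intra at 45 min flncb and tpma kept theirs in all 19, myl10 in 18, ttn.2 in 14, and acta1a and tnnc2.2 in 12 each.

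The replicate block left the 6 calls of notch1a-intra at 45 min and all 5 of RA at 1.5 h, and changed besides those named only tpma and tnnc2.2 in RA at 1.5 h, which passed, and tnnc2.2 in the contrast of the notch1a-intra times, which passed with the block and with array weights, as flncb did with weights. With the mean of the other 6 genes as a covariate unc45b lost its call in RA at 3 h (-0.47, adjusted p = 0.0775). Only in notch1a-intra at 45 min did every pair of same-numbered arrays correlate above 0.1, among comparisons with at least 3 pairs. The total of probe sets called also moved. It was 61 to 2651 over the alternatives and 244 to 524 with 1 array left out around 414 in notch1a-intra at 45 min, 277 to 1068 and 246 to 531 around 439 in RA at 1.5 h, and 296 to 725 and 283 to 335 around 373 in RA at 3 h, the highest with array weights in each. The causes were not tested.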
